A study of Mus musculus with 16 samples.

Results

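AMPA and kainate receptors are the glutamate-gated ion channels that carry most fast excitatory transmission in the brain, and the 9 genes that encode their subunits were followed here in cultures of differentiating neural stem cells (NSC) after depletion of the long noncoding RNA RUS. They are the AMPA subunit genes Gria1, Gria2, Gria3 and Gria4 and the kainate subunit genes Grik1, Grik2, Grik3, Grik4 and Grik5. All 9 were found by their symbol among the 55471 lines of each deposited expression table. The cells were NSC from the cortices of C57BL/6 mouse embryos at E15-16, taken from pooled brains and grown as a monolayer in medium with FGF2, and differentiation was started 5 days after seeding by a change to Neurobasal medium. Every culture received a lentivirus, which encoded a scrambled shRNA (ctrl, called control below) or a single shRNA against RUS (RUSKD, called knockdown below). RNA from control and knockdown cultures on day 5 and day 7 gave 4 groups of 4 libraries each, 16 in all. The labels and the published methods give different concentrations for FGF2 and for the GlutaMAX supplement. Since a single shRNA was compared with a single scrambled sequence, an effect of RUS and an effect of that shRNA cannot be told apart.

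AMPA receptors are tetramers of GluA1 to GluA4, the products of Gria1 to Gria4, and open and close within milliseconds. GluA2 decides how much calcium the channel lets through, because its RNA is edited at a single codon by the deaminase ADAR2 (Adarb1), which turns a glutamine into an arginine in the pore. Kainate receptors are tetramers too. GluK1 to GluK3 (Grik1 to Grik3) can form channels by themselves, whereas the high-affinity subunits GluK4 and GluK5 (Grik4 and Grik5) need a partner among them. The early GABAergic and glutamatergic neurons of the embryo, and also progenitors and oligodendrocyte precursors, are known to carry such receptors.

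The coding bases around this Q/R codon are printed for all 9 genes because the codon is the feature in which the subunits differ after editing and which they share in the genome. Each run holds 30 coding bases of the GRCm38 genome in the direction of the transcript, read from the longest coding transcript of the gene in GENCODE vM21, with the codon in capitals.
Gria1: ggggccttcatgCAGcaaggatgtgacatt
Gria2: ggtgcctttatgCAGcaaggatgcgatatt
Gria3: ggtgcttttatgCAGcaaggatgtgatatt
Gria4: ggtgcctttatgCAAcaaggatgtgacatt
Grik1: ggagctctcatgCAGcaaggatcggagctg
Grik2: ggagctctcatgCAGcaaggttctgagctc
Grik3: ggctccctgatgCAGcaaggatctgaactg
Grik4: ggaggcttcatgCAGcaaggctccactatt
Grik5: ggtggcttcatgCAGcagggctcggagatc

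The codon reads glutamine in the genome in all 9 genes, as CAA in Gria4 and as CAG in the others. In background knowledge it is edited in Gria2, Grik1 and Grik2. Of the 30 bases of Gria2, Gria3 shared 28, Gria4 27 and Gria1 26, and the kainate genes shared between 20 (Grik2) and 23 (Grik4). The run of Gria1 lies at chr11:57243082-57243111 on the plus strand, in exon 11 of 16. That of Gria2 lies at chr3:80706896-80706925 on the minus strand, in exon 11 of 16, and that of Gria3 at chrX:41610253-41610282 on the plus strand, in exon 11 of 15. Gria4 has it at chr9:4464122-4464151 on the minus strand, in exon 11 of 16. In Grik4 it is at chr9:42547608-42547637 on the minus strand, in exon 16 of 21, and in Grik5 at chr7:25022482-25022511 on the minus strand, in exon 15 of 20. In Grik1, Grik2 and Grik3 the run crosses an exon junction that follows the codon. There the codon itself is at chr16:87940542-87940544 (minus strand, exon 13 of 18), chr10:49244329-49244331 (minus strand, exon 13 of 17) and chr4:125691207-125691209 (plus strand, exon 12 of 16). The tables hold 1 value per gene and library, so that neither the edited share of the RNA nor the splice forms of a subunit can be read from them.

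The values are TPM, a unit that scales transcript abundances to a common sum of 1000000 per library. They are values that the authors computed per gene with RSEM, and they correct for transcript length, so that levels can be set side by side between genes. TPM were divided here by 1 factor per library and are called scaled TPM. Fold changes are on the scale of log2(scaled TPM + 0.1), and a gene was called changed at an adjusted p under 0.05 in limma with Benjamini-Hochberg adjustment over all genes tested. All 9 subunits passed the filter of a mean of at least 0.1 TPM in every comparison. Since TPM carry no read counts, sequencing depth is unknown. The authors' mean normalized count gives an idea of it: it ran from 201 (Grik1) to 7007 (Gria2) on day 5 and from 431 (Grik1) to 8363 (Gria2) on day 7. The labels do not say whether the 4 libraries of a group came from separate cultures, and the p-values measure the spread between these libraries, which may be technical.

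Between 25615 and 29126 genes were above 0 in a library. RUS itself (Gm20754) was low in all 16 libraries. The authors' mean normalized count for it was 3.86 on day 5 and 8.57 on day 7, so that its percentages rest on few reads. On day 5 it stood at 0.24, 0.11, 0.18 and 0.16 TPM in the control and at 0.05, 0, 0.12 and 0.32 TPM in the knockdown libraries, a mean of 71.0% of the control (exact two-sided permutation test, p = 0.543). On day 7 it stood at 0.70, 0.72, 0.26 and 0.54 TPM against 0.54, 0.38, 0 and 0.04 TPM, a mean of 43.2% (p = 0.143 in the same exact test, whose smallest possible p is 0.0286). Single libraries weighed much on these means. Without knockdown replicate 4 of day 5 the knockdown mean was 32.9% of the control (exact permutation test, p = 0.0857), and without knockdown replicate 1 of day 7 it was 25.2% (p = 0.0857 in the same exact test). Other omissions moved it the other way. The mean was 94.7% without knockdown replicate 2 of day 5 (exact permutation test, p = 0.943). It was 57.7% without knockdown replicate 3 of day 7 (p = 0.286 in the same exact test). The groups overlapped on both days, and the directions below are those of the libraries labelled knockdown. On day 5, knockdown replicate 4 stood apart on the first principal component, at 11.0 against 30.6 to 41.8 in the other 3, and its values are pointed out where it moves a result on a subunit. Control replicate 4 of day 5 stood apart too, at -18.3 on the first component against -40.3 to -30.1 in the other 3 and at -33.8 on the second against -3.47 to 14.8, and no call on a subunit changed without it.

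Gria2, Grik5, Gria3 and Gria1 were the 4 most abundant subunit RNAs in all 4 groups. In control cultures on day 5 the order of the mean scaled TPM was Gria2 (66.4 ± 7.13, SD, n = 4), Grik5 (54.6 ± 3.56), Gria3 (31.4 ± 2.55), Gria1 (23.8 ± 1.66), Gria4 (8.20 ± 0.743), Grik4 (6.06 ± 0.360), Grik2 (5.62 ± 0.494), Grik3 (5.48 ± 0.939) and Grik1 (2.80 ± 0.218). The libraries of Gria2 and Grik5 overlapped in this order, and so did those of the neighbours Grik4, Grik2 and Grik3. In control cultures on day 7 Grik3 had moved from the eighth to the fifth place, with 17.1 ± 0.437 (SD, n = 4), and Grik4 and Grik1 stood last at 4.98 ± 0.523 and 4.50 ± 0.444, with overlapping libraries. In knockdown cultures on day 5 Grik5 came first with 73.4 ± 6.53 (SD, n = 4) and Gria2 second with 55.0 ± 10.2, again with overlapping libraries. On day 7 the knockdown order was led by Gria2 (67.5 ± 5.01, SD, n = 4), Grik5 (59.6 ± 3.60), Gria3 (45.3 ± 1.65) and Gria1 (34.9 ± 1.82), and the libraries of Gria2 and Grik5 overlapped.

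**Figure D1:**
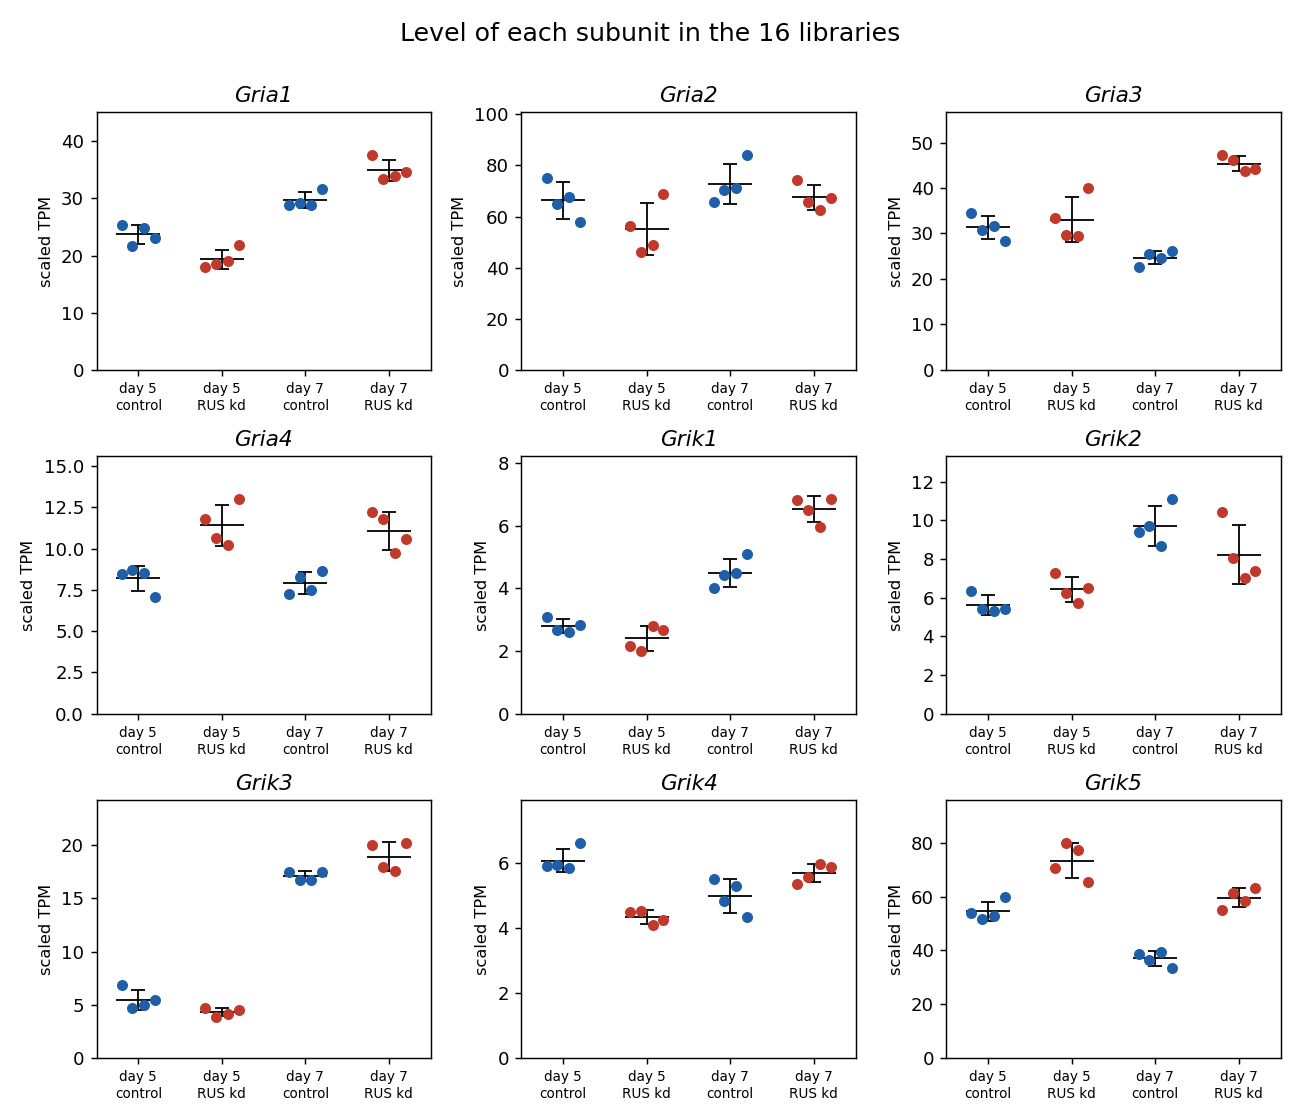
Scaled TPM of the 9 subunit genes (y axis, starting at 0) in each of the 16 libraries, by day and shRNA (x axis, RUS kd: knockdown). Points are libraries in the order of their replicate number, horizontal lines the mean and bars the SD of 4 libraries. Gria3 lies between 43.8 and 47.2 in the knockdown on day 7 and between 22.7 and 26.1 in the control.

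The first question was what changed under the RUS shRNA on day 5, at the switch to differentiation medium. Of the 9 subunits, Gria4 and Grik5 were higher in the knockdown and Gria1 and Grik4 were lower. Over all 22581 genes tested on that day, 14.8% were higher and 17.9% lower, so that 2 of 9 in each direction is near the background. The median log2 fold change was -0.10 over the 4 AMPA subunits and -0.22 over the 5 kainate subunits, against -0.06 over all genes.

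Gria4 encodes GluA4, the AMPA subunit with fast kinetics that is prominent in interneurons and in the developing brain. Its scaled TPM was 8.45, 8.71, 8.55 and 7.10 in the control and 11.8, 10.6, 10.2 and 13.0 in the knockdown libraries. Every knockdown library was above every control library, and the log2 fold change was 0.47 (SE 0.099, adjusted p = 0.00576). On TPM as deposited it was 0.32 and missed the threshold (adjusted p = 0.0656). Grik5 encodes GluK5, the widely expressed high-affinity kainate subunit. It measured 53.8, 51.8, 52.9 and 59.7 in the control and 70.6, 79.9, 77.5 and 65.5 scaled TPM in the knockdown, with no overlap. The log2 fold change of Grik5 was 0.43 (SE 0.077, adjusted p = 0.00260), a ratio of 1.34.

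Grik4 encodes GluK4, the other high-affinity subunit, and went the opposite way. It stood at 5.89, 5.94, 5.83 and 6.60 scaled TPM in the control and at 4.49, 4.52, 4.08 and 4.25 in the knockdown, again without overlap, and fell by 0.47 on the log2 scale (SE 0.081, adjusted p = 0.00202). Gria1, which encodes the GluA1 subunit that is inserted into synapses in plasticity, gave 25.4, 21.7, 24.9 and 23.1 in the control and 18.1, 18.6, 19.1 and 21.8 in the knockdown. The highest knockdown library, replicate 4, lay just inside the control range. Gria1 fell by 0.29 (SE 0.078, adjusted p = 0.0182), and this call was lost, with adjusted p between 0.0508 and 0.0577, without control replicate 1, control replicate 3 or knockdown replicate 2. It was also lost with the replicate number as a block (adjusted p = 0.0635).

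The other 5 subunits did not pass the threshold on day 5. Gria2 ran from 57.76 to 75.03 scaled TPM in the control, and in the knockdown it read 56.2, 46.2, 48.7 and 68.9. Its highest knockdown value came from replicate 4, which had the highest Gria1, Gria2, Gria3 and Gria4 of its group. The log2 fold change of Gria2 was -0.28 (SE 0.13, adjusted p = 0.122), with a 95% interval from -0.56 to 0.00, and without that library it was -0.39 and passed the threshold (adjusted p = 0.0129). Grik3, the kainate subunit GluK3, had 6.82, 4.71, 4.97 and 5.41 in the control and 4.69, 3.88, 4.13 and 4.51 in the knockdown. Its libraries did not overlap, yet its log2 fold change of -0.33 (SE 0.12) missed the threshold at an adjusted p of 0.0704. It passed, at an adjusted p of 0.0136, in 1 fit over all 16 libraries, which also differs in its factors and in the genes tested. For Gria3, Grik1 and Grik2 the log2 fold changes were 0.07 (95% interval -0.16 to 0.30), -0.22 (-0.52 to 0.08) and 0.19 (-0.03 to 0.41), and the groups overlapped. With quantile normalization Grik2 passed on day 5 (0.33, adjusted p = 0.0240).

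On day 7, 2 days into differentiation, more subunits were higher in the knockdown. Gria1, Gria3, Gria4, Grik1, Grik3 and Grik5 were called higher and none was called lower, 6 and 0 of 9, and at an unadjusted limma p under 0.05 also 0 were lower. Of 24606 genes tested on day 7, 23.4% were higher and 25.8% lower. The median log2 fold change was 0.37 over the AMPA subunits and 0.21 over the kainate subunits, against -0.03 over all genes.

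Gria3 showed the greatest difference among the 9. GluA3, its product, usually pairs with GluA2. The libraries held 22.7, 25.5, 24.5 and 26.1 scaled TPM of Gria3 in the control and 47.2, 46.2, 43.8 and 44.1 in the knockdown. The groups were far apart, at a ratio of 1.85 (log2 fold change 0.89, SE 0.049, adjusted p = 8.39e-07). Gria1 had 28.9, 29.2, 28.9 and 31.7 in the control and 37.5, 33.5, 34.0 and 34.7 in the knockdown. It was higher in 4 of 4 knockdown libraries, at a log2 fold change of 0.25 (SE 0.048, adjusted p = 0.00187), where it had been lower on day 5. Gria4 had 7.25, 8.29, 7.51 and 8.63 against 12.2, 11.8, 9.71 and 10.6, and its log2 fold change of 0.49 (SE 0.087, adjusted p = 0.00109) was close in size to that of day 5.

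Among the kainate subunits, Grik5 stood at 38.7, 36.3, 39.5 and 33.5 scaled TPM in the control and at 55.1, 61.4, 58.5 and 63.4 in the knockdown on day 7. The ranges were well separated, with a log2 fold change of 0.70 (SE 0.065, adjusted p = 1.74e-05), a ratio of 1.63. Grik1, whose product GluK1 is known from GABAergic interneurons, had 4.01, 4.41, 4.50 and 5.09 in the control and 6.82, 6.51, 5.95 and 6.84 in the knockdown, a log2 fold change of 0.54 (SE 0.085, adjusted p = 0.000509) without overlap. For Grik3 the control libraries gave 17.5, 16.8, 16.7 and 17.5 and the knockdown libraries 20.0, 18.0, 17.6 and 20.2. The lowest knockdown library was just above the highest control library. The log2 fold change of Grik3 was 0.16 (SE 0.055), its adjusted p was 0.0395, and the call was lost without any of control replicates 1 to 4 or knockdown replicates 1 and 4, at adjusted p between 0.0574 and 0.0956, in 1 fit over all libraries, at 0.251, with no filter, at 0.0504, and with eBayes without a trend, at 0.0632.

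Gria2, Grik2 and Grik4 did not pass on day 7. Gria2, the most abundant subunit, had 65.7, 70.5, 71.1 and 83.9 scaled TPM in the control and 74.3, 65.8, 62.4 and 67.4 in the knockdown. These ranges overlapped widely, and the log2 fold change was -0.09 with a 95% interval from -0.26 to 0.08. Grik2, which encodes GluK2, the main channel-forming kainate subunit of principal neurons, had 9.39, 9.73, 8.65 and 11.1 in the control against 10.4, 8.04, 7.01 and 7.40. Its log2 fold change was -0.24 (SE 0.12, adjusted p = 0.146), and without knockdown replicate 1, the highest of its group, it was -0.35 and passed at an adjusted p of 0.0123. Grik4 ran from 4.32 to 5.50 in the control and from 5.34 to 5.96 in the knockdown, with a log2 fold change of 0.21 (SE 0.090, adjusted p = 0.0895), and passed with quantile normalization (0.28, adjusted p = 0.0222).

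**Figure D2:**
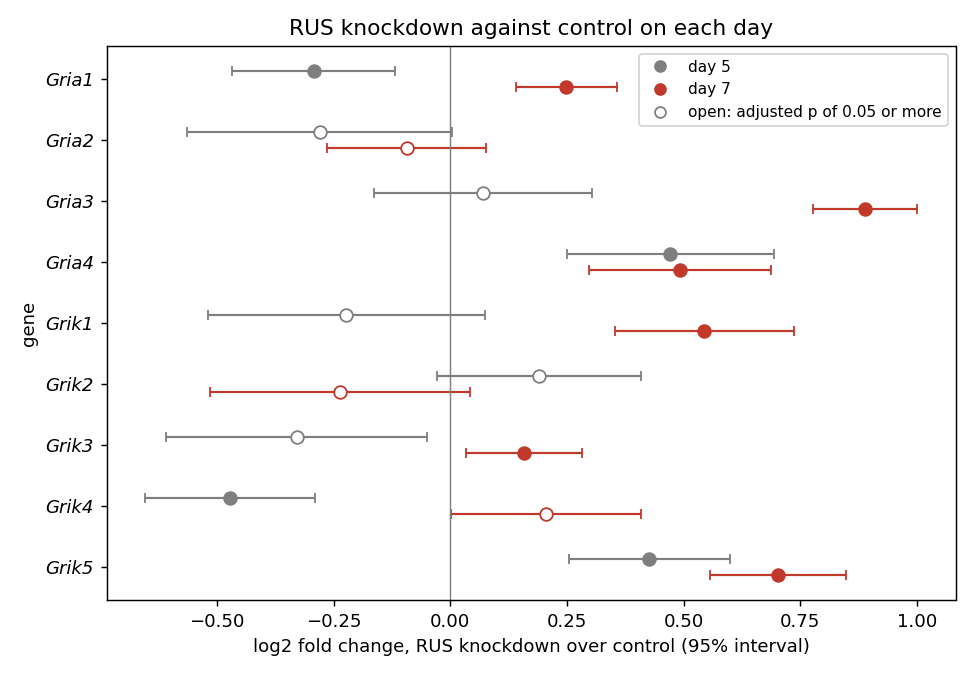
Log2 fold change of each subunit gene in knockdown over control (x axis) on day 5 (grey) and day 7 (red), with 95% intervals from limma, 4 libraries per group. Filled points passed an adjusted p of 0.05. Gria4 and Grik5 lie above 0 on both days, Gria1 lies at -0.29 and 0.25, and Gria3 at 0.07 and 0.89.

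The effect of the knockdown was then compared between the days in 1 fit over all 16 libraries, as the day 7 effect minus the day 5 effect. It was more positive on day 7 for 5 of the 9 subunits and more negative for 0. At an unadjusted limma p under 0.05 it was more positive for 6 (Grik5 in addition) and more negative for 1 (Grik2). Over 23789 genes, 15.2% had a more positive and 14.6% a more negative effect. The difference on the log2 scale was 0.81 for Gria3 (SE 0.12, adjusted p = 0.000200), 0.75 for Grik1 (SE 0.16, adjusted p = 0.00207), 0.67 for Grik4 (SE 0.11, adjusted p = 0.000488), 0.53 for Gria1 (SE 0.093, adjusted p = 0.000646) and 0.47 for Grik3 (SE 0.14, adjusted p = 0.0169). Gria4 showed a difference of 0.01, with a 95% interval from -0.28 to 0.30. Grik2 was at -0.44 (SE 0.17, adjusted p = 0.0571), Grik5 at 0.26 (SE 0.10, adjusted p = 0.0617) and Gria2 at 0.17 (95% interval -0.17 to 0.52), and these 3 did not pass. Grik2 and Grik5 passed in several of the alternatives, including the one with a filter at a mean of 1 TPM, at adjusted p of 0.0407 and 0.0460. Grik2 also passed without control replicate 1 or knockdown replicate 3 of day 5 or without control replicate 3 or knockdown replicate 1 of day 7 (adjusted p between 0.00752 and 0.0451), and Grik5 without knockdown replicate 2 of day 5 or knockdown replicate 1 of day 7 (0.0378 and 0.0426).

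The change from day 5 to day 7 within each shRNA shows the 2 sides of this difference. The days were deposited as separate tables, and the labels give no harvest batch, so that day and harvest cannot be told apart. In the control, Gria1, Grik1, Grik2 and Grik3 were higher on day 7 and Gria3, Grik4 and Grik5 were lower, 4 and 3 of 9, while 26.9% of all genes tested were higher and 21.6% lower. In the knockdown, 7 of the 9 were higher and Grik5 alone was lower, while 35.0% of all genes were higher and 25.8% lower. These 2 comparisons share no library with each other, but each library also entered a comparison within its day.

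Grik3 rose most. Its mean scaled TPM went from 5.48 to 17.1 in the control, a ratio of 3.12 (log2 fold change 1.64, SE 0.098, adjusted p = 1.82e-09), and from 4.30 to 18.9 in the knockdown, a ratio of 4.33 (log2 fold change 2.11, SE 0.098, adjusted p = 8.82e-11). Grik1 rose by a ratio of 1.58 in the control (log2 fold change 0.66, adjusted p = 0.000122) and of 2.67 in the knockdown (1.42, adjusted p = 2.19e-08). For Gria1 the ratios were 1.25 (log2 fold change 0.32, adjusted p = 0.000773) and 1.80 (0.85, adjusted p = 2.05e-08). These 3 genes had every day 7 library above every day 5 library in both shRNA groups.

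Gria3 and Grik4 changed in opposite directions in the 2 shRNA groups. Gria3 fell by 0.34 on the log2 scale in the control (SE 0.086, adjusted p = 0.00364) and was 0.46 higher in the knockdown (SE 0.086, adjusted p = 0.000215). Grik4 fell by 0.28 in the control (SE 0.080, adjusted p = 0.00792) and was 0.38 higher in the knockdown (SE 0.080, adjusted p = 0.000587). In both genes the libraries of the 2 days did not overlap within either shRNA. These calls depended in part on the scaling. On TPM as deposited the control values were -0.19 for Gria3 (adjusted p = 0.143) and -0.13 for Grik4 (adjusted p = 0.206), which were not called, and with quantile normalization Grik4 in the knockdown was at 0.18 (adjusted p = 0.0625). Over the 3 other scalings Gria3 in the knockdown stood between 0.29 and 0.79 and was called in each. Grik5 fell by 0.56 in the control (SE 0.071, adjusted p = 8.59e-06) and by 0.30 in the knockdown (SE 0.071, adjusted p = 0.00189). Grik2 rose by 0.78 in the control (SE 0.12, adjusted p = 4.57e-05) and by 0.34 in the knockdown (SE 0.12, adjusted p = 0.0200), where its libraries overlapped between the days. The latter call was lost without knockdown replicate 3 of day 5 or knockdown replicate 1 of day 7, at adjusted p of 0.0659 and 0.0739, with quantile normalization (0.15, adjusted p = 0.293) and with the 75th percentile (0.17, adjusted p = 0.218). Gria2 rose by 0.31 in the knockdown (SE 0.11, adjusted p = 0.0281), with overlapping libraries, and was at 0.13 in the control (95% interval -0.11 to 0.38). Its call was lost without knockdown replicate 2 or 3 of day 5 or knockdown replicate 1 of day 7, at adjusted p between 0.0811 and 0.104, and with factors from the 75th percentile, where it was at 0.14 (adjusted p = 0.296). Gria4 was at -0.05 in the control (95% interval -0.25 to 0.16) and at -0.04 in the knockdown (-0.25 to 0.16).

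**Figure D3:**
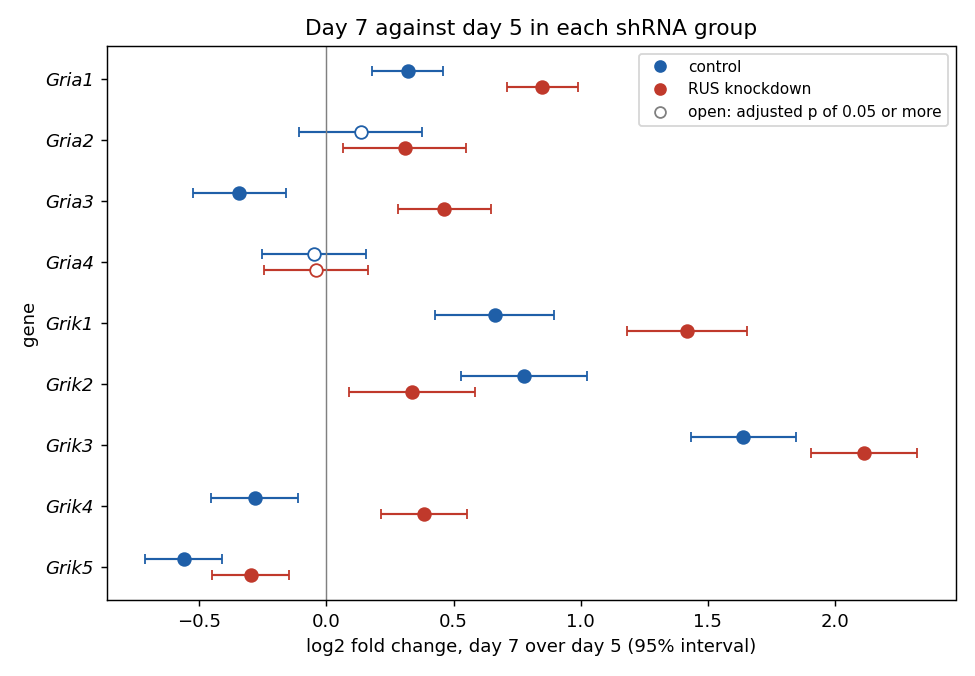
Log2 fold change of each subunit gene on day 7 over day 5 (x axis) in control (blue) and knockdown (red) cultures, with 95% intervals from limma, 4 libraries per group. Filled points passed an adjusted p of 0.05. Grik3 lies at 1.64 and 2.11, and Gria3 and Grik4 lie below 0 in the control and above 0 in the knockdown.

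The scaling between libraries touched these directions. Without any factor, on TPM as deposited, the log2 fold change had a median over all genes of -0.21 on day 5, 0.20 for day 7 over day 5 in the control and 0.41 in the knockdown, and the genes called on day 5 split into 1768 higher and 6037 lower in place of 3349 and 4034. In that setting 1 subunit was called higher (Grik5) and 4 lower on day 5 (Gria1, Gria2, Grik3 and Grik4), and Gria4 (0.32, adjusted p = 0.0656) was no longer called. All 6 calls of day 7 were present, and the median of all genes was -0.03. From day 5 to day 7 in the knockdown, 8 subunits were then higher, and Grik5, which fell with factors, stood at 0.03. With factors from the 75th percentile of each library, the day 5 calls split into 4359 higher and 3143 lower, and 2 subunits were higher and 2 lower. The differences between the days split into 3626 more positive and 3464 more negative calls in the main setting, 5700 and 2053 on TPM as deposited and 2665 and 4338 with the 75th percentile. Under the latter 5 subunits were more positive and Grik2 was more negative. The calls for day 7 over day 5 in the control split into 6394 higher and 5133 lower with the main factors and into 8573 and 3434 as deposited, where 4 subunits were higher and 1 (Grik5) was lower. With the 75th percentile the larger side turned, to 5373 higher and 6244 lower, with 4 subunits higher and 3 lower. In the knockdown they split into 8317 and 6135 with the main factors, 11801 and 3545 as deposited and 6618 and 7767 with the 75th percentile, where 5 subunits were higher and 1 was lower.

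Shares of the subunits within a library do not depend on that factor. They were described and not tested. Gria2 made up 49.6% to 52.3% of the summed TPM of the 4 AMPA subunits in the control libraries on day 5 and 44.0% to 48.0% in the knockdown libraries. On day 7 it made up 52.7%, 52.9%, 53.9% and 55.8% in the control and 43.4%, 41.8%, 41.6% and 43.0% in the knockdown. The knockdown share was lower in every library, on both days. Put as a ratio, Gria2 over the sum of Gria1, Gria3 and Gria4 was 1.17 ± 0.0682 (SD, n = 4) in the control and 0.738 ± 0.0261 (SD, n = 4) in the knockdown on day 7, and 1.05 ± 0.0471 and 0.857 ± 0.0612 on day 5. In level, with the main factors, Gria2 did not pass the threshold on either day, while Gria4 was higher on both days and Gria3 on day 7.

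The share of Gria3 was 24.2% ± 0.235 (SD, n = 4) in the control and 27.8% ± 0.320 in the knockdown on day 5, and 18.3% ± 0.730 and 28.6% ± 0.871 on day 7. Gria4 took 6.33% ± 0.442 and 9.64% ± 0.474 on day 5 and 5.86% ± 0.238 and 6.97% ± 0.447 on day 7. Neither gene's shares overlapped between the shRNA groups. Gria1 took 22.0% in both groups on day 7, with an SD of 0.865 in the control and 0.580 in the knockdown. The summed TPM of the 4 AMPA subunits was 124.5 to 150.4 in the control and 149.9 to 171.2 in the knockdown on day 7, and on day 5 the ranges were 116.4 to 143.4 and 105.0 to 143.7.

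Grik5 was the main kainate subunit RNA in every library. It took 73.2% ± 1.67 (SD, n = 4) of the summed kainate TPM in the control and 80.7% ± 2.14 in the knockdown on day 5, and 50.4% ± 2.57 and 60.2% ± 2.55 on day 7. Grik3 moved from 7.34% ± 1.10 on day 5 to 23.4% ± 0.847 on day 7 in the control and from 4.76% ± 0.669 to 19.1% ± 1.08 in the knockdown. The subunits that can form channels by themselves, Grik1 to Grik3, summed to 0.230 ± 0.0293 (SD, n = 4) of the high-affinity Grik4 and Grik5 in the control and to 0.171 ± 0.0253 in the knockdown on day 5. On day 7 that ratio was 0.752 ± 0.0982 and 0.518 ± 0.0660. It was lower in the knockdown on both days, without overlap. The summed kainate TPM was 70.5 to 80.0 against 83.4 to 96.5 on day 5 and 71.5 to 75.1 against 94.9 to 103.7 on day 7, higher in every knockdown library on the scale with factors. Unlike the shares, these sums depend on the factors, and on TPM as deposited the ranges of day 5 overlap.

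**Figure D4:**
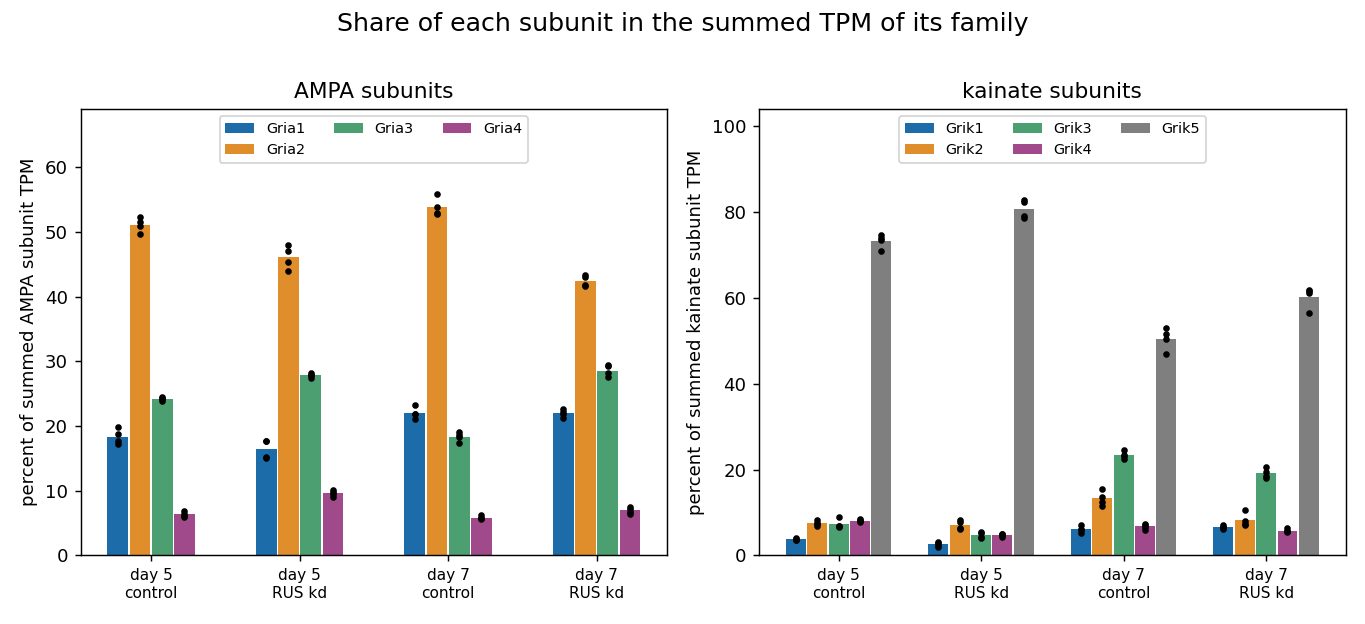
Percent of the summed scaled TPM of the 4 AMPA (left) and the 5 kainate subunit genes (right) taken by each gene (y axis), by day and shRNA (x axis, RUS kd: knockdown). Bars are means of 4 libraries and points single libraries. Gria2 takes 52.7% to 55.8% in the control and 41.6% to 43.4% in the knockdown on day 7, and Grik5 falls from 73.2% to 50.4% in the control between the days.

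The partner proteins of the receptors were counted from fixed lists, beside the shares of all genes given above, 14.8% higher and 17.9% lower on day 5 and 23.4% and 25.8% on day 7. Nothing was tested for a list as a whole. Of 18 genes for AMPA receptor auxiliary proteins, which steer gating and trafficking, 4 were higher and 5 lower on day 5 and 9 were higher and 3 lower on day 7. The day 5 counts are near the shares of all genes. Log2 fold changes in the list had a median of -0.09 on day 5 and 0.29 on day 7. Cacng7, a transmembrane AMPA receptor regulatory protein (TARP) and the most abundant of the list over the 16 libraries, was at 87.1 to 103.2 scaled TPM in the control and 128.8 to 141.7 in the knockdown on day 5 (log2 fold change 0.50, adjusted p = 0.000371). On day 7 it was at 72.5 to 77.1 against 119.8 to 130.3 (0.73, adjusted p = 5.00e-07). Olfm1, a secreted binding partner of AMPA receptors, was also higher on both days, with log2 fold changes of 0.25 (adjusted p = 0.00976) and 0.83 (adjusted p = 1.18e-06). Cpt1c, an AMPA receptor partner in the endoplasmic reticulum, was at 0.23 (adjusted p = 0.0258) and 0.19 (adjusted p = 0.00988).

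Cacng4 and Shisa7 were lower on day 5. Cacng4, a further TARP, fell by 0.53 (adjusted p = 0.00110) on day 5 and was at -0.07 (adjusted p = 0.243) on day 7. Shisa7 fell by 0.57 (adjusted p = 0.00487) on day 5 and was 0.36 higher (adjusted p = 0.00614) on day 7, a difference of the effect of 0.92 (adjusted p = 0.000196). Among the called genes of the list, Cacng3 had the greatest increase on day 7, 1.26 (adjusted p = 0.00103), at a level under 1 scaled TPM, and Shisa8 fell by 1.01 (adjusted p = 0.00146).

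Of 4 genes for kainate auxiliary and binding proteins, 0 were higher and 2 of the 3 tested were lower on day 5, and 0 were higher and 3 of 4 lower on day 7, beside 17.9% and 25.8% of all genes that were lower. C1ql3, a secreted C1q-like protein that binds kainate receptors, was at 29.9 to 33.8 scaled TPM in the control and 7.56 to 9.49 in the knockdown on day 5, and at 58.0 to 64.0 and 13.0 to 16.5 on day 7. It fell by 1.85 (adjusted p = 7.44e-06) and by 2.07 (adjusted p = 1.22e-07). Neto2, a transmembrane auxiliary subunit of kainate receptors, fell by 0.76 (adjusted p = 0.00101) and by 0.60 (adjusted p = 2.30e-05). Its relative Neto1 was at 0.40 (adjusted p = 0.0697) and -0.19 (adjusted p = 0.393). C1ql2 was below the filter on day 5 and fell by 0.91 (adjusted p = 0.00102) on day 7.

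Of 19 scaffold and trafficking genes, 3 were higher and 5 lower on day 5 and 9 were higher and 1 lower on day 7, with medians of -0.14 and 0.24. Here too the day 5 counts are near the 14.8% and 17.9% of all genes. Dlg4 (PSD-95, the main postsynaptic scaffold) was at -0.02 (adjusted p = 0.892) on day 5 and 0.34 (adjusted p = 0.00256) on day 7, and Dlg1 (SAP97, which binds GluA1) at -0.32 (adjusted p = 0.0303) and 0.08 (adjusted p = 0.141). The most abundant of the list, Nsg2 and Nsg1, are endosomal proteins of neurons that sort AMPA receptors. Nsg1 fell by 0.30 (adjusted p = 0.00253) and by 0.24 (adjusted p = 0.00925), and Nsg2 by 0.14 on day 5 (adjusted p = 0.0349), with -0.05 on day 7 (adjusted p = 0.388). Homer1 fell by 0.34 (adjusted p = 0.0466) on day 5 and was at -0.12 (adjusted p = 0.193) on day 7, and Lrrtm1, a synaptic adhesion protein, was higher on both days, by 0.43 (adjusted p = 0.0275) and 0.67 (adjusted p = 0.000268).

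The 3 genes of the ADAR family were tested because of the codon shown above. None was called on day 5 by limma, also at an unadjusted p under 0.05, and all 3 were higher on day 7, when 23.4% of all genes were. Adarb1, the enzyme of the Q/R codon, was at 4.68 to 5.25 scaled TPM in the control and 4.76 to 6.34 in the knockdown on day 5, and at 6.40 to 7.11 and 7.58 to 8.41 on day 7 (log2 fold change 0.29, adjusted p = 0.00389). Adar was at -0.12 (adjusted p = 0.431) and 0.51 (adjusted p = 6.58e-05), and Adarb2, a family member with no known activity, at -0.03 (adjusted p = 0.888) and 0.86 (adjusted p = 8.72e-05). Whether the codon was edited to a different degree was not measured.

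Delta and metabotropic glutamate receptors gave 1 higher and 1 lower of 9 tested on day 5, no more than the shares of all genes (14.8% and 17.9%), and 5 higher and 1 lower on day 7 (23.4% and 25.8%). Grm5 fell by 0.99 on day 5 (adjusted p = 0.000364) and was 0.32 higher on day 7 (adjusted p = 0.0211). Grid1 was higher by 0.48 (adjusted p = 0.0263) and 0.61 (adjusted p = 0.000230), Grm3 was at 0.09 (adjusted p = 0.549) and 0.45 (adjusted p = 0.000393), and Grm4 at -0.04 (adjusted p = 0.818) and 1.15 (adjusted p = 7.66e-06). Of 7 tested genes for glutamate release, uptake and conversion, 1 was higher and 2 lower on day 5 and 2 were higher and 3 lower on day 7, beside the same shares of all genes. Glul (glutamine synthetase) was higher by 0.33 (adjusted p = 0.00509) and 0.52 (adjusted p = 9.82e-07), and the transporter Slc1a1 fell by 0.73 (adjusted p = 0.000359) and 1.28 (adjusted p = 0.000452). The astroglial transporter Slc1a2 fell by 0.65 (adjusted p = 0.00340) on day 5 and was at -0.01 on day 7 (adjusted p = 0.857), and Slc1a3 was at -0.11 (adjusted p = 0.251) and fell by 0.15 on day 7 (adjusted p = 0.0289). Slc17a8, a vesicular glutamate transporter, fell by 1.34 on day 7 (adjusted p = 3.68e-05) and was at -0.49 (adjusted p = 0.174) on day 5.

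Markers of the cell types in these cultures were counted beside the same shares of all genes, 14.8% higher and 17.9% lower on day 5 and 23.4% and 25.8% on day 7. In bulk RNA, fewer cells of a type and less RNA per cell cannot be told apart. The summed TPM of 9 pan-neuronal markers was 513.2 to 590.9 in the control and 526.9 to 590.8 in the knockdown on day 5, and 752.7 to 837.6 and 719.6 to 854.8 on day 7. It overlapped on both days. On day 5, 2 of the 9 genes were higher and 2 lower, near the shares of all genes. On day 7, 5 were higher (Rbfox3, Snap25, Syt1, Syn1 and Elavl3) and 2 lower (Map2 and Stmn2). The sum is mostly Map2, Tubb3, Stmn2 and Dcx, which did not move together. On day 5 the control and knockdown means were 153.0 and 228.7 scaled TPM for Stmn2 and 156.1 and 114.2 for Map2. Taken gene by gene on the log2 scale, the list's median was -0.06 for day 5 and 0.48 for day 7. Over all genes it was -0.06 and -0.03. The 6 markers of GABAergic interneurons summed to 169.2 to 209.1 against 143.3 to 174.1 on day 5, with 0 higher and 3 lower, and to 245.4 to 264.8 against 274.4 to 318.2 on day 7, with 4 higher and 0 lower. The 143.3 of day 5 came from knockdown replicate 4, with Dlx1 at 78.5 scaled TPM against 86.2 to 94.1 in the other knockdown libraries. The markers of excitatory cortical neurons summed to at most 1.39 scaled TPM in any library. Slc17a6, Neurod2 and Neurod6 were under 0.1 on average in every group, so the defining markers of cortical excitatory neurons were near 0 in cells labelled as cortical.

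The counts of the glial and vascular markers stand beside the same shares, 14.8% higher and 17.9% lower on day 5 and 23.4% and 25.8% on day 7. Oligodendrocyte precursor markers summed to 230.4 to 313.8 in the control and 149.2 to 240.2 in the knockdown on day 5, with 0 of 6 higher and 4 lower, and to 320.1 to 366.0 and 214.2 to 232.9 on day 7, with all 6 lower. The 313.8 and 149.2 of day 5 came from control and knockdown replicate 4, with Olig1 at 208 and 104.9 scaled TPM. In the other libraries Olig1 was at 138.2 to 162.4 in the control and 167.2 to 184.8 in the knockdown. Pdgfra did not overlap on day 5, at 19.5 to 24.2 against 8.56 to 12.3. Microglia markers summed to 77.7 to 82.8 against 66.7 to 84.7 on day 5 (2 of 6 lower) and to 180.6 to 193.3 against 76.2 to 97.6 on day 7 (6 of 6 lower). The 7 astrocyte markers summed to 5368 to 5598 against 6924 to 7156 on day 5, with 2 higher and 1 lower, and to 3277 to 3426 against 3886 to 4065 on day 7, with 3 higher and 1 lower. The higher sum on day 5 is carried by Gfap, at means of 1848 and 2791 scaled TPM, and Aldoc, at 1327 and 1971, and the list had a median log2 fold change of 0.01. The 7 markers of neural stem cells and radial glia had 4 higher and 2 lower on day 5, with sums of 11640 to 13810 against 16920 to 20470, and 3 higher and 2 lower on day 7, with 6098 to 6426 against 6535 to 7125. These sums are mostly Vim and Fabp7, at means of 9181 and 3617 scaled TPM in the control on day 5, while Nes fell by 0.87 and 1.19 (adjusted p = 3.46e-05 and 1.71e-06) and Hes5 by 0.67 and 0.83 (adjusted p = 0.0357 and 0.00304). Of the 6 vascular and fibroblast markers, 4 passed the filter, and 1 was higher on day 5 and 2 on day 7. The sums were 16.7 to 18.8 against 17.5 to 23.7 on day 5 and 11.4 to 12.4 against 26.9 to 29.9 on day 7. They are mostly Pdgfrb, at control and knockdown means of 14.3 and 18.0 scaled TPM on day 5 and 10.6 and 26.3 on day 7. On day 7 Col1a1 was at 0.711 and 1.71 and Dcn at 0.389 and 0.249. Cldn5 and Lum were under 0.1 on average in every group, with Cldn5 at 0 in the control on day 7. The part of these markers in the changes of the subunits was not tested.

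For each subunit the 3 genes most alike in profile were looked up by Pearson's r of log2 values over the 16 libraries among 15898 genes that averaged 1 TPM or more. This is a description, since the libraries share their group, day and table. Grik3 was followed most closely by Zfp704, Rnf150 and Csrnp3 (r of 0.99 each), Grik5 by Bcar1, Cdkn1a and Crat (0.99 each) and Gria1 by D130040H23Rik, Smcr8 and Robo2 (0.98 to 0.99). Grik1 was most like Kif5a, Zkscan3 and Apba1 (0.98 each), Gria3 most like Tab2, Tnik and Zfp970 (0.97 each), and Gria2 most like Wwp1, Slc25a36 and Dok6 (0.96 each). For Gria4 the genes were Rap1b, Tmem167b and Thap6 (0.95 to 0.96), for Grik2 they were Tmem64, Fchsd2 and Dnajc3 (0.94 each), and for Grik4 they were Klf13, Slc26a1 and Rnf112 (0.87 to 0.90).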

How the data were processed

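Libraries were grouped by shRNA and day from their labels. According to the methods, polyA-enriched RNA was sequenced on an Illumina NextSeq, and the authors used STAR for alignment to mm10 with the GRCm38.99 annotation and RSEM for quantification. They deposited TPM per gene and library, and for each gene and day a mean normalized count (a signal over all libraries of that day), used here only as the authors' value. The deposited tables also hold the fold changes and p-values of the authors' own DESeq2 comparison, which were not used.

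TPM were divided by median-ratio factors (genes of at least 1 TPM in all libraries of a fit), 0.1 was added, and log2 values of genes averaging 0.1 TPM or more were tested two-sided with limma 3.58.1 in R 4.3.3 (lmFit, eBayes with a trend, Benjamini-Hochberg adjustment, threshold 0.05). Comparisons within a day used its 8 libraries, the others 1 fit over 16 libraries. Levels shown use factors over 16 libraries. On day 5, 3 lines without a gene name were left out, and 106 lines that could not be matched between the tables were left out of comparisons between days. The test was checked on simulated data with independent libraries. That check does not cover libraries that stand apart, as on day 5. The members and lists were chosen with earlier results of these data known. Named genes are the 9 subunits, Gm20754, the 4 most abundant genes of each receptor list with the largest called changes of each day, and the 3 genes most alike to each subunit; some of the list genes are counted but not reported here. Alternatives were other pseudocounts, filters and scalings, eBayes without a trend, a replicate block, 1 fit over 16 libraries, and leaving out each library. Positions and sequences came from GENCODE vM21 (GRCm38), matched by symbol for all 9 subunits. Gria2, Gria3, Gria4 and Grik4 overlap annotated small RNA genes on the same strand.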

Additional observations from a re-analysis of the deposited data

Results flagged for a closer look

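The knockdown effect on 5 subunits differed between the days by the test of the difference itself. The day 7 effect exceeded the day 5 effect by 0.53 on the log2 scale for Gria1, by 0.81 for Gria3, by 0.75 for Grik1, by 0.47 for Grik3 and by 0.67 for Grik4. With quantile normalization the difference for Grik3 was 0.33 and no longer passed (adjusted p = 0.0633).

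In 4 of 36 groups of 4 libraries, 1 library lay far from the other 3 by Dixon's ratio of its gap to the range of the group, which chance gives in about 5% of groups. For Gria1 in the control on day 7 this was replicate 4, the highest at 31.7 scaled TPM, with a ratio of 0.896. For Gria4 in the control on day 5 it was replicate 4, the lowest at 7.10 (0.837). Grik2 in the control on day 5 was highest in replicate 1 at 6.36 (0.888), and Grik4 in the control on day 5 was highest in replicate 4 at 6.60 (0.852).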

How the results depend on the processing

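Of 855 recomputed values for the 9 subunits, 791 kept their direction and their side of the threshold, 26 were no longer called, 20 were newly called and 18 changed sign. Leaving out each library in turn gave 3 to 5 called subunits on day 5, 5 to 6 on day 7, 7 for day 7 over day 5 in the control, 6 to 8 in the knockdown and 5 to 7 for the difference between the days. The other alternatives gave 3 to 5, 5 to 7, 5 to 7, 6 to 8 and 5 to 7. The sign changes were in values that had not been called, apart from Grik5. On TPM as deposited, Gria3 on day 5 was at -0.0874, Gria4 for day 7 over day 5 at 0.1001 in the control and 0.280 in the knockdown (adjusted p = 0.0297), and Grik5 in the knockdown at 0.0266. Without single libraries Gria3 on day 5 ranged from -0.0217 to 0.124, the lowest without knockdown replicate 4, and Gria4 for day 7 over day 5 in the knockdown from -0.0944 to 0.0219. The difference between the days for Gria4 was -0.0204 with quantile normalization, -0.0789 with the 75th percentile and -0.0439 to 0.0761 without single libraries. The cause was not tested. The mean of RUS in the knockdown was 32.9% to 94.7% of the control on day 5 and 25.2% to 57.7% on day 7 without single libraries, an alternative chosen after seeing the data.

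With the replicate number as a block, 3 subunits were called on day 5 (Gria1 no longer, adjusted p = 0.0635), 6 on day 7, 7 in the control and 8 in the knockdown between the days, and 6 for the difference between the days (Grik2 in addition, adjusted p = 0.0257). Over all 22581 genes of day 5 the block gave 2231 higher and 2735 lower calls in place of 3349 and 4034, and over all 24606 of day 7 it gave 5330 and 5895 in place of 5766 and 6342. Libraries of the same number did not deviate together, with correlations of their deviations from -0.226 to -0.024 on day 5 and from 0.023 to 0.11 on day 7, and 0 and 2 of the 4 correlated best with their own number. Depth per library is unknown, and only the authors' mean normalized counts bear on it.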
